A study of Homo sapiens with 6 samples.

Results

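Histone genes were described in RNA-seq of TFK1, a human cholangiocarcinoma cell line, with 3 libraries labelled negative control (oeNC) and 3 labelled STUB1 overexpression (oeSTUB1). Genes were chosen by symbol: linker histones (H1), clustered core histones (H2AC, H2BC, H3C and H4C symbols) and further H2A and H3 symbols, most of them of variants. The rule found 69 of the 23569 genes in the table, 60 clustered and 9 variant or solitary. H2AW and H3-7, which carry such further symbols, were counted as clustered. STUB1 is a ubiquitin ligase that works with chaperones, and the study used these libraries to look for genes downstream of STUB1, UHRF1 and DNMT1. The labels give no drug or other agent to any library. The study's methods describe a lentiviral vector carrying the full-length STUB1 coding sequence, and puromycin selection of infected TFK1 cells. Whether the cells sequenced were a pool or a single clone is not given in the sources used here.

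Nucleosomes wrap DNA around the core histones H2A, H2B, H3 and H4, and H1 binds the linker DNA between them. The clustered genes, most of them in a large group on chromosome 6 and a smaller group on chromosome 1, are switched on together in S phase. Their mRNAs classically lack introns and end in a stem-loop in place of a poly(A) tail, although some of these genes also give longer polyadenylated transcripts. The variant genes lie apart from the clusters, and most are transcribed through the cell cycle into polyadenylated mRNA. H2AX is an exception, with both stem-loop and polyadenylated transcripts. Variants such as H2A.Z and the replacement H3 enter chromatin outside replication.

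Some sequence features differ between the classes. The stem-loop is shown first because it marks the replication-dependent mRNAs, with the paired bases in capitals and the loop in lower case, in the DNA letters of the GENCODE 29 transcripts.

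H2AC6 and H3C10: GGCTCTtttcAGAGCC
H4C8: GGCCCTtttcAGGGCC
H2BC5: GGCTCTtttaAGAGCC
H2AX: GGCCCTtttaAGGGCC

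These 16 bases were searched as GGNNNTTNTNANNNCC with a fully paired stem, on the transcript strand. A match was found in 25 of the 55 clustered genes with a transcript model, in 1 of the 9 variant genes (H2AX), and in 0.305% of 19684 protein-coding genes. The most frequent form, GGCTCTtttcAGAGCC, was in 13 histone genes. Many GENCODE 29 models of clustered genes stop at the end of the coding sequence, so a missing match says only that these letters are not in those models. H2BC12 and H1-2 are examples, with a model of 381 and 642 bases and no match.

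Promoters of 62 of the 69 genes were found in a RefSeq table (GRCh38.p14), as the 250 bases before and 50 bases after the start. H2BC12 and H1-2 are printed because they had the highest FPKM of all clustered genes, and H2AZ1 because it had the highest FPKM of all histone genes. Each sequence is the 250 bases before the start, 5′ to 3′ on the strand of the gene, and capitals mark motif matches on either strand. The motifs searched were the octamer ATTTGCAT, bound by POU2F1. The others were the CCAAT box, with those letters, the TATA box, spelled TATAAA, and the H1 box, spelled AAACACA.

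H2BC12, chr6:27146859-27147108, minus strand: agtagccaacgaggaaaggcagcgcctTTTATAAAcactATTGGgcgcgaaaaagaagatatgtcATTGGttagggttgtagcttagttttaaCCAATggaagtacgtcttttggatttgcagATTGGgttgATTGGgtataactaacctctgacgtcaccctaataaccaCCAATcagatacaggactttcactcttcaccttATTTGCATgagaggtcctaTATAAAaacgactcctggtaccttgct
H1-2, chr6:26056471-26056720, minus strand: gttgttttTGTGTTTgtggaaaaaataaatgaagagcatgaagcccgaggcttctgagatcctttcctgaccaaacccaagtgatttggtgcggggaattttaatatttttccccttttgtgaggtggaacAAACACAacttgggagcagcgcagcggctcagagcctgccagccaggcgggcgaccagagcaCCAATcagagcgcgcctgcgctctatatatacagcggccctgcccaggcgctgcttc
H2AZ1, chr4:99950276-99950525, minus strand: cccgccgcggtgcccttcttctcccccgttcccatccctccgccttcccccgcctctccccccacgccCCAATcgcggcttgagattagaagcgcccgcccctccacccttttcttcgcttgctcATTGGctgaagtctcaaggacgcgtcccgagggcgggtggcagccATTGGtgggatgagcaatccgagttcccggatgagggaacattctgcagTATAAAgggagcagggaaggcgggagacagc

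The H2BC12 promoter held 1 octamer, 6 CCAAT matches and 3 TATAAA matches, of which those at -223 to -216 overlap on opposite strands. The H1-2 promoter held 2 H1 box matches and 1 CCAAT match, and the H2AZ1 promoter 3 CCAAT matches and 1 TATAAA match. Across classes, the octamer was in 13 of 16 clustered H2B promoters (81.2%), 8 of 13 clustered H2A promoters (61.5%), 1 of 7 variant promoters and 1.8% of 27305 promoters of all genes. The H1 box was in 6 of 6 clustered H1 promoters against 5.76% of all promoters, and in 0 of the 7 variant promoters. CCAAT was in 47 of 55 clustered promoters (85.5%) against 35.7% of all promoters, but in 1 of 9 clustered H4 promoters. It was in 6 of 7 variant promoters (85.7%). TATAAA was in 37 of 55 clustered promoters (67.3%) and 4 of 7 variant promoters (57.1%), against 12% of all promoters. CCAAT and TATAAA thus did not separate clustered from variant genes.

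The 6 libraries held 33106564 to 36744521 fragments, and fragments were recovered as whole numbers for each listed gene. STUB1 was at 32.9, 33.0 and 30.9 FPKM (fragments normalised for gene length and library total) in oeNC and at 61.4, 75.0 and 61.9 FPKM in oeSTUB1, which followed the labels (2.05-fold, limma adjusted p = 0.000642). The library of oeSTUB1 replicate 2 stood apart: the mean gene length over its fragments was 4207 bases, against 4736 to 4891 bases in the other 5 libraries. For the clustered and variant genes given library by library, the value without that library stands beside any result whose call or direction it changed or whose log2 fold change it moved by over 1.5 times. UHRF1, which binds hemimethylated DNA and modified H3, was at 11.6, 11.1 and 10.7 FPKM in oeNC and 15.5, 12.2 and 12.9 FPKM in oeSTUB1 (log2 fold change 0.27, SE 0.10, limma adjusted p = 0.126). DNMT1, the maintenance methyltransferase, was at 28.4 to 30.0 FPKM in oeNC and 23.6 to 32.3 FPKM in oeSTUB1 (adjusted p = 0.90).

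The variant genes carried nearly all the histone signal. Summed over the 9 variant genes, the values were 1072, 1050 and 1031 FPKM for oeNC, and 1011, 1374 and 993 FPKM for oeSTUB1. Over the 60 clustered genes it was 66.3, 72.2 and 76.0 in oeNC and 81.9, 97.3 and 88.6 in oeSTUB1. The variant sum was thus 11.2 to 16.2 times the clustered sum in each library. A median variant gene was at 99.4 FPKM and a median clustered gene at 0.256 FPKM, beside a median of 0.799 FPKM over all genes in the table. Of the clustered genes, 12 had a mean of at least 1 FPKM, 6 had over 100 fragments in any library, 32 had at most 10 fragments in every library and 16 had at most 3, the number taken as the floor.

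**Figure D1:**
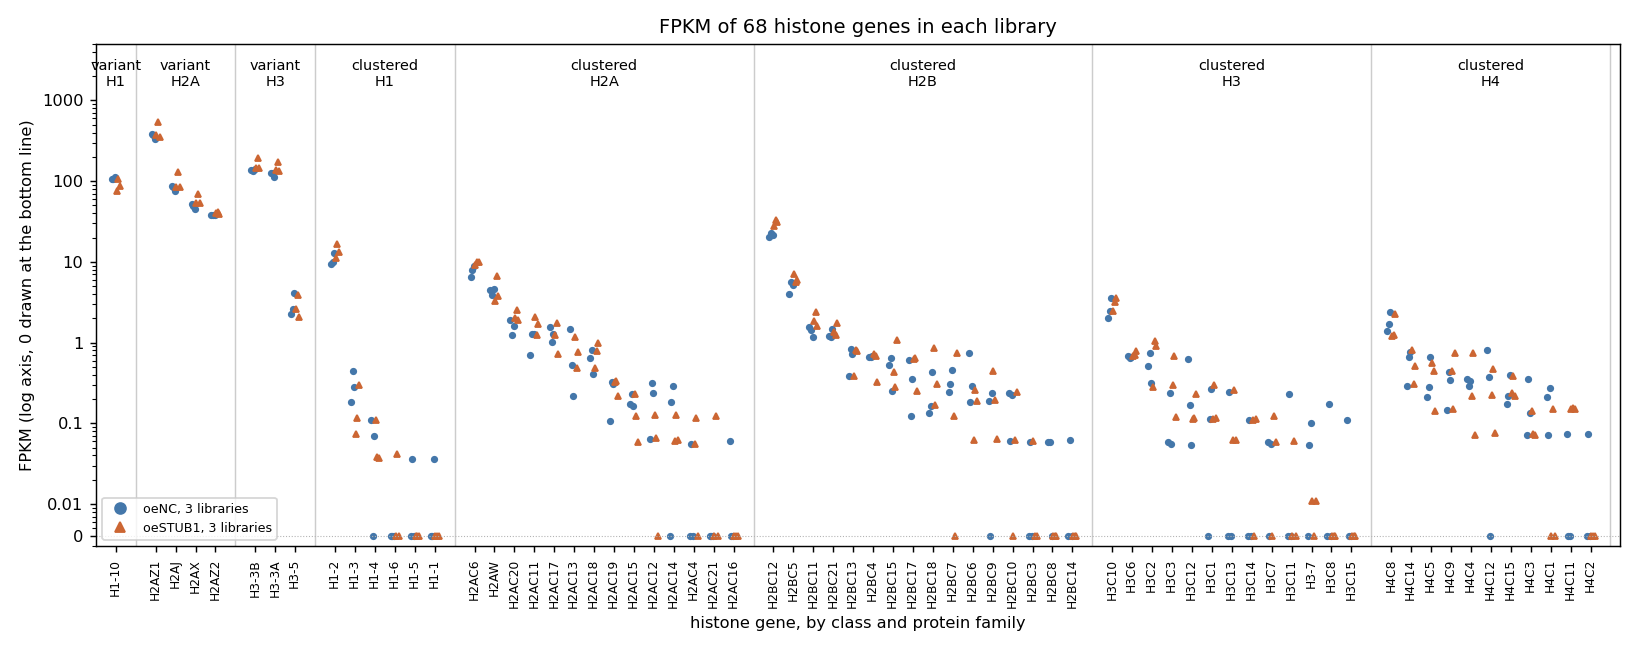
FPKM of 68 of the 69 histone genes in the 6 libraries on a log axis, with oeNC as circles, oeSTUB1 as triangles and values of 0 on the bottom line. Apart from H3-5, the variant genes lie above all clustered genes, and most clustered genes lie below 1 FPKM.

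The kit named in the labels does not say whether RNA was selected by its poly(A) tail, and the selection step is not given in the sources used here. A list of 32 RNAs known to lack a poly(A) tail, such as RMRP, RN7SK and the vault RNAs, had 0 members listed in the table. The table held 16636 protein-coding genes and 5619 long noncoding RNA genes by RefSeq class, and no gene of a small nuclear, small nucleolar or vault RNA class. Whether the listed RNAs were absent from the libraries or only from the table cannot be told. Their absence thus does not show how RNA was selected. The FPKM of clustered genes therefore measures whatever part of their mRNA entered these libraries. In bulk RNA, a change in the share of cells in S phase and a change in mRNA per cell cannot be told apart.

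The clustered sum averaged 71.5 ± 4.87 FPKM over the oeNC libraries and 89.3 ± 7.74 FPKM over the oeSTUB1 libraries (SD, n = 3 each), a log2 ratio of 0.32. The 3 oeSTUB1 libraries lay above the 3 oeNC libraries without overlap, which was also the case for 21.5% of all genes tested. H2BC12 alone held 28.7% to 35.4% of the clustered sum, and H2BC12, H1-2, H2AC6, H2BC5 and H2AW together held 67.8% to 74.0%. Without H2BC12 the oeNC libraries summed to 45.9, 49.2 and 54.2 FPKM and the oeSTUB1 libraries to 53.7, 64.1 and 57.2 FPKM, and the groups overlapped (log2 ratio 0.23). No test was made on sums, since they are scores over chosen genes.

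The variant sum averaged 1051 ± 20.6 FPKM over the oeNC libraries and 1126 ± 215 FPKM over the oeSTUB1 libraries (SD, n = 3 each), a log2 ratio of 0.10. The groups overlapped, and the direction rested on oeSTUB1 replicate 2, without which the ratio was -0.07. The log2 ratio of the clustered sum without that library was 0.25. As a percentage of all histone FPKM, the clustered genes made up 5.83%, 6.43% and 6.87% in oeNC and 7.49%, 6.61% and 8.20% in oeSTUB1.

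**Figure D2:**
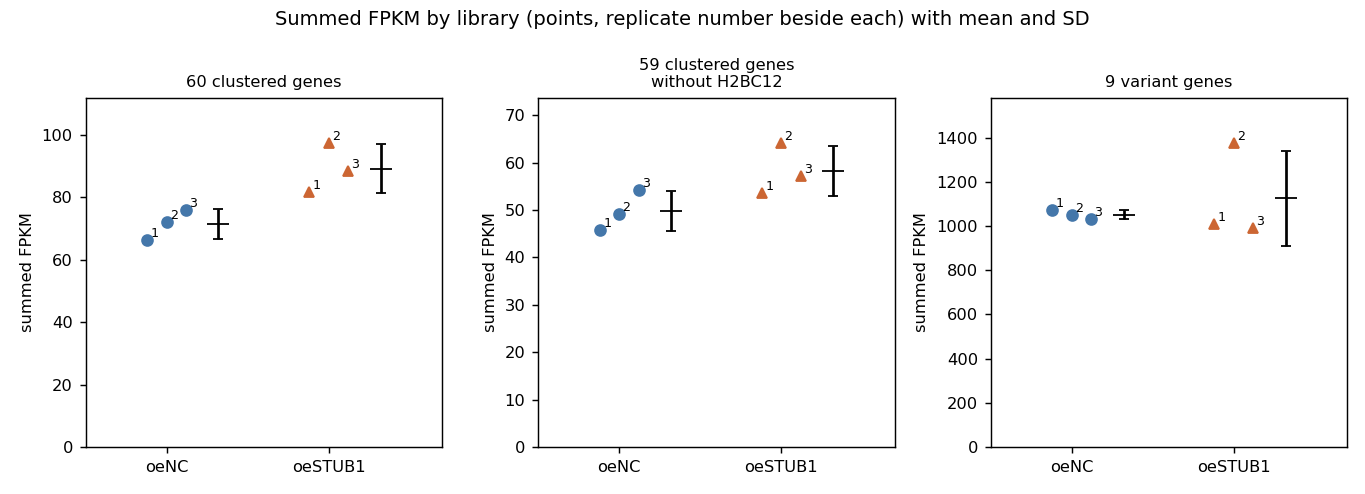
Summed FPKM by library for the clustered genes, the clustered genes without H2BC12 and the variant genes, with the replicate number beside each point and the mean and SD as a bar, all axes from 0. The clustered sums of oeSTUB1 (81.9 to 97.3) lie above those of oeNC (66.3 to 76.0), while oeSTUB1 replicate 2 lies alone at 1374 in the variant sum.

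Of the 69 histone genes, 51 passed the filter of a mean of 0.1 FPKM, 42 clustered and all 9 variant genes. The 18 that did not pass were clustered genes. At an adjusted p under 0.05 in limma, 1 histone gene was higher in oeSTUB1 (H2BC12) and 1 was lower, against 7.01% and 6.59% of the 15353 genes tested. Both directions together were called in 13.6% of all genes. No histone gene was called with an absolute log2 fold change over 1, which 5.2% of all genes tested were. At an unadjusted p under 0.05 there were 6 of the 51 histone genes (11.8%), beside 29.7% of all genes tested. The lower call was lost with a replicate block and in 5 of the 6 fits that left out a library, all but the fit without oeSTUB1 replicate 2. The median log2 fold change was 0.13 over the 42 clustered genes and 0.20 over the 9 variant genes, beside 0.02 over all genes tested. The variant values depended on oeSTUB1 replicate 2. Without that library no variant gene was above 0.16 (H3-3A) and H1-10 was at -0.42, beside a median of 0.03 over all genes. With it the highest variant value was 0.27. Without overlap between the groups, 9 of the 51 were higher and 1 was lower, beside 21.5% and 17.3% of all genes tested.

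H2BC12 (HIST1H2BK in GENCODE 29, chr6:27146418-27146798, minus strand, GRCh38), which encodes an H2B and lies in the chromosome 6 cluster, was higher in oeSTUB1. It was at 20.4, 23.0 and 21.8 FPKM in oeNC, from 629, 707 and 710 fragments. In oeSTUB1 it was at 28.2, 33.2 and 31.4 FPKM, from 861, 976 and 951 fragments. The lowest oeSTUB1 library was above the highest oeNC library. The mean rose 1.42-fold, from 21.7 ± 1.28 to 30.9 ± 2.56 FPKM (SD, n = 3 each), and the log2 fold change was 0.51 (SE 0.09, limma adjusted p = 0.00995). Without oeNC replicate 1 the call was lost (log2 fold change 0.46, limma adjusted p = 0.0600).

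Part of the H2BC12 value could not be placed with certainty. Of the windows of 100 bases in its GENCODE 29 transcript, a model of 381 bases, 28.4% occur in another gene as well. The length recovered from its FPKM was 887 bases, so its value was counted over a longer model. The shared part of that longer model was not measured. Its RefSeq span overlaps H4C9. H2BC12L, a near copy of H2BC12 on another chromosome, was at 0.0627 to 0.497 FPKM in all libraries, and H4C9 at 0.145 to 0.737 FPKM. Both are chosen for their relation to H2BC12, and both are far below it.

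H1-10, a linker histone gene outside the clusters, was at 106, 106 and 114 FPKM in oeNC and 76.4, 107 and 86.3 FPKM in oeSTUB1. The groups overlapped through oeSTUB1 replicate 2. The log2 fold change was -0.29 (SE 0.12, limma adjusted p = 0.162), and without that library it was -0.42 (adjusted p = 0.00381). Its RefSeq span overlaps an antisense RNA that is also listed in the table, and the strand setting of the counting is not given in the sources used here.

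The clustered H1 genes were low except for H1-2, which was at 9.50, 10.02 and 12.7 FPKM in oeNC and 11.3, 16.7 and 13.3 FPKM in oeSTUB1. The groups overlapped, and the log2 fold change was 0.34 (SE 0.16, limma adjusted p = 0.204), or 0.20 without oeSTUB1 replicate 2. The other clustered H1 genes, H1-1, H1-3, H1-4, H1-5 and H1-6, had at most 12 fragments in any library.

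Among the H2A variants, H2AZ1, which encodes H2A.Z and marks promoters, had the highest FPKM of all histone genes. It was at 386, 376 and 329 FPKM in oeNC and 376, 543 and 354 FPKM in oeSTUB1 (log2 fold change 0.20, SE 0.17, limma adjusted p = 0.469). Apart from oeSTUB1 replicate 2, its values overlapped, and without that library the log2 fold change was 0.01. H2AZ2, the second gene for H2A.Z, was at 38.2, 38.0 and 38.0 FPKM in oeNC and 40.2, 41.9 and 39.6 FPKM in oeSTUB1. Its groups did not overlap but differed by 0.09 on the log2 scale (SE 0.07, adjusted p = 0.421). H2AZ1 was 8.67 to 10.1 times as high as H2AZ2 in FPKM in 5 libraries and more in oeSTUB1 replicate 2, and the pair held 71.3% to 73.4% of all H2A FPKM.

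H2AX, whose phosphorylated form marks DNA breaks, was at 52.6, 48.7 and 44.7 FPKM in oeNC and 53.0, 69.8 and 53.9 FPKM in oeSTUB1. The groups did not overlap, though their nearest libraries were at 52.6 and 53.0 FPKM, and the log2 fold change was 0.27 (SE 0.12, limma adjusted p = 0.193), or 0.14 without oeSTUB1 replicate 2. H2AJ, an H2A variant that accumulates in senescent cells, was at 86.6, 83.9 and 76.1 FPKM in oeNC and 85.7, 128 and 84.2 FPKM in oeSTUB1 (log2 fold change 0.25, SE 0.16, adjusted p = 0.350). In H2AJ, H2AX and H2AZ1 the highest library was oeSTUB1 replicate 2, and without it the log2 fold change of H2AJ was 0.05. The RefSeq span of H2AX overlaps DPAGT1.

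The replacement H3 is encoded by H3-3A and H3-3B, which made up 96.6% to 97.7% of all H3 FPKM. H3-3A was at 127, 126 and 113 FPKM in oeNC and 136, 174 and 135 FPKM in oeSTUB1 (log2 fold change 0.27, SE 0.12, limma adjusted p = 0.162). H3-3B was at 136, 134 and 143 FPKM in oeNC and 145, 195 and 146 FPKM in oeSTUB1 (log2 fold change 0.22, SE 0.12, adjusted p = 0.278). Neither gene's groups overlapped, and neither passed the test. Without oeSTUB1 replicate 2 their log2 fold changes were 0.16 for H3-3A and 0.08 for H3-3B. H3-5, a retrocopy in the H3-3B lineage, was at 2.25, 2.64 and 4.08 FPKM in oeNC and 2.58, 3.93 and 2.08 FPKM in oeSTUB1 (log2 fold change -0.07, SE 0.27, adjusted p = 0.898, and -0.31 without oeSTUB1 replicate 2).

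**Figure D3:**
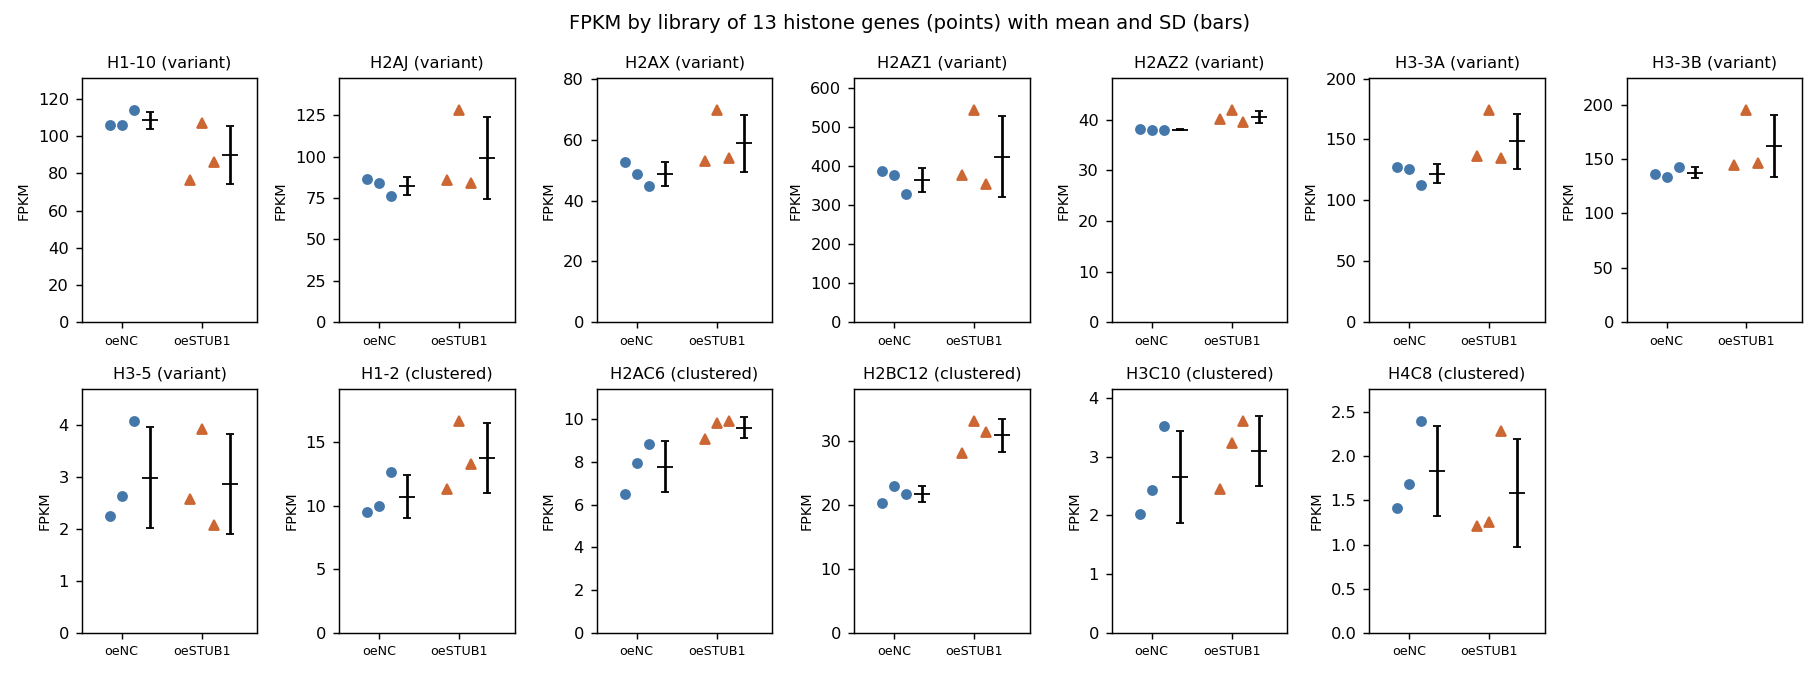
FPKM by library of 8 variant genes and of the clustered gene with the highest mean in each family, with oeNC as circles, oeSTUB1 as triangles and the mean and SD as a bar, all axes from 0. H2BC12 is higher in each oeSTUB1 library than in any oeNC library. The highest point is oeSTUB1 replicate 2 for H2AJ, H2AX, H2AZ1, H2AZ2, H3-3A and H3-3B, and also for H1-2 and H2BC12.

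By FPKM over the 6 libraries the 8 variant genes given here ran in the order H2AZ1 (394), H3-3B (150), H3-3A (135), H1-10 (99.4), H2AJ (90.8), H2AX (53.8), H2AZ2 (39.3) and H3-5 (2.93). H3-3B and H3-3A overlapped in their ranges over libraries, as did H3-3A and H1-10, and H1-10 and H2AJ. H2BC12, at a mean of 26.3 FPKM, came next after H2AZ2 and above H3-5.

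Among the 14 clustered H2A genes, H2AC6 was the highest, at 6.50, 7.95 and 8.86 FPKM in oeNC and 9.06, 9.84 and 9.92 FPKM in oeSTUB1. The groups did not overlap, and the log2 fold change was 0.31 (SE 0.12, limma adjusted p = 0.134). Of the 11 clustered H2A genes tested, 7 had a positive and 4 a negative log2 fold change, with a median of 0.24. None was called, and 1 had an unadjusted p under 0.05 in limma (9.09%, beside 29.7% of all genes tested). Sequence shared with other genes filled 57.7% to 84.0% of the windows of H2AC13, H2AC14 and H2AC17, so their split was uncertain.

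Among the 16 clustered H2B genes, 13 were tested, 9 with a positive log2 fold change. H2BC12 was the called gene (7.69%, near the 7.01% of all genes). Summed over the family, H2B was at 31.0, 34.3 and 33.3 FPKM in oeNC and 42.2, 45.6 and 44.6 FPKM in oeSTUB1. H2BC12 made up 65.5% to 72.9% of that sum. H2BC5 and H2BC11, given because their groups did not overlap and so chosen after their values were seen, had log2 fold changes of 0.33 (SE 0.15, limma adjusted p = 0.171) and 0.44 (SE 0.18, adjusted p = 0.142). The 21 clustered H2A and H2B genes with an octamer in the promoter window, 15 of them tested, had a median log2 fold change of 0.31. Of the 15, 9 had a positive and 6 a negative log2 fold change, from -0.83 to 0.59. The positive share was 60%, beside 63.6% of clustered H2A genes tested, 69.2% of clustered H2B genes tested and 59.5% of all clustered genes tested. The median log2 fold changes of those H2A and H2B genes were 0.24 and 0.18.

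The clustered H3 and H4 genes were lower still. H3C10 was the highest H3 gene, at 2.02, 2.43 and 3.53 FPKM in oeNC and 2.45, 3.23 and 3.61 FPKM in oeSTUB1 (log2 fold change 0.23, SE 0.22, limma adjusted p = 0.527). H4C8 was the highest H4 gene, at 1.41, 1.69 and 2.40 FPKM in oeNC and 1.21, 1.26 and 2.29 FPKM in oeSTUB1 (log2 fold change -0.22, SE 0.28, adjusted p = 0.628). Both genes' groups overlapped, and the H4C8 values came from 17 to 36 fragments, with a log2 fold change of -0.10 without oeSTUB1 replicate 2. Of 7 clustered H3 genes tested, 6 had a positive log2 fold change (median 0.37). Of 9 clustered H4 genes, 2 did (median -0.14), and none of either family was called or had an unadjusted p under 0.05 in limma. H3C14, H3C15, H4C12 and H4C14 share 100% of their windows with another gene.

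By position, 33 of the 47 clustered genes on chromosome 6 were tested, with a median log2 fold change of 0.02, and 9 of the 13 on chromosome 1, with a median of 0.24. H2BC12 was the called gene on chromosome 6 (3.03%, beside 7.01% of all genes), and on chromosome 1 none was called. The 12 tested genes of other kinds that lie between the histone genes on chromosome 6, such as the butyrophilins BTN2A1 and BTN3A2, showed a median of -0.17 on the log2 scale. None of the 12 was called in limma, and 2 had an unadjusted p under 0.05 (16.7%, beside 29.7% of all genes tested).

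**Figure D4:**
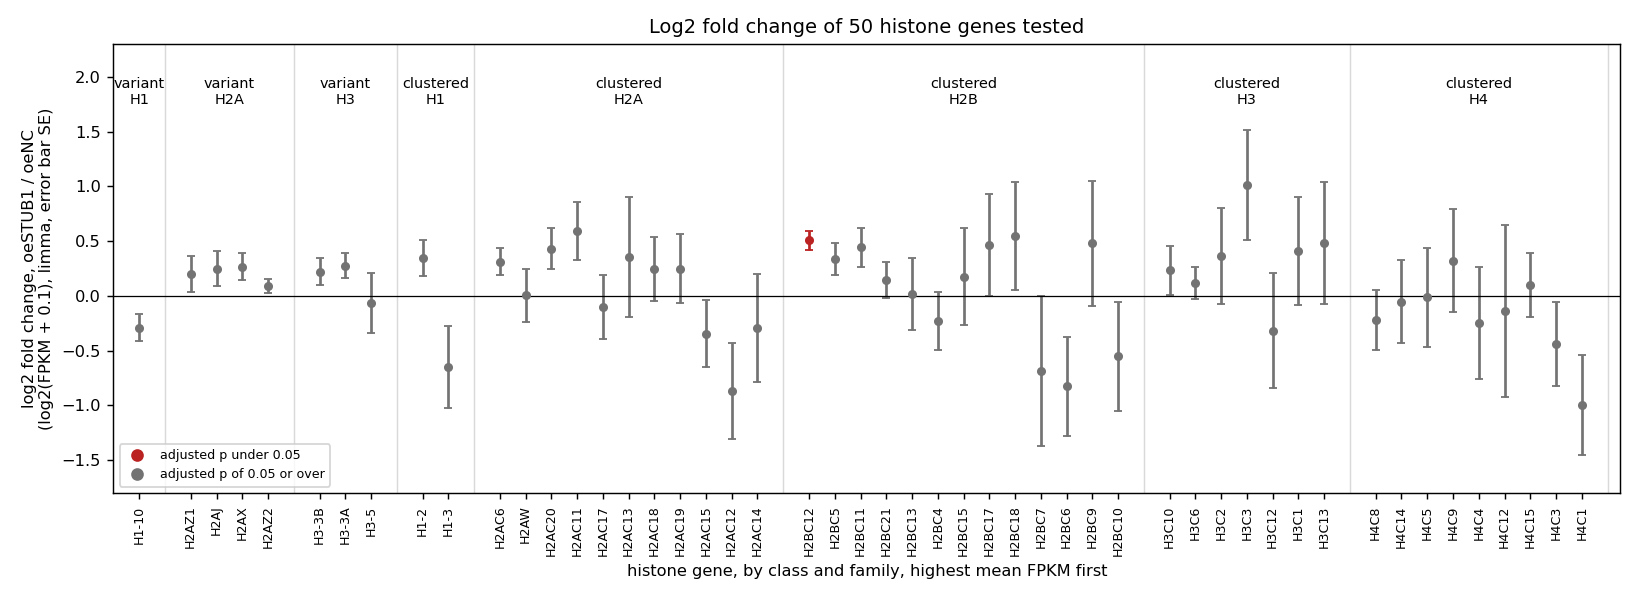
Log2 fold change of oeSTUB1 against oeNC for 50 of the 51 histone genes tested, with the SE as error bar, ordered by class, family and mean FPKM. H2BC12 (0.51) is the gene drawn with an adjusted p under 0.05, and the error bars widen toward the genes with few fragments.

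Genes that make, process and deposit histones were read in the same fit. Of 27 genes of histone mRNA transcription and 3′ processing, 2 were higher (7.41%, near the 7.01% of all genes), none was lower and the median log2 fold change was 0.05. The higher genes were NCBP1, the large subunit of the nuclear cap-binding complex, and SRRT, its partner that joins capped RNAs to their processing machinery. NCBP1 was at 11.9, 11.8 and 11.9 FPKM in oeNC and 17.6, 15.5 and 16.2 FPKM in oeSTUB1 (log2 fold change 0.46, SE 0.08, limma adjusted p = 0.00841). SRRT averaged 30.6 ± 1.46 FPKM over oeNC and 38.6 ± 1.13 FPKM over oeSTUB1 (SD, n = 3 each), without overlap (log2 fold change 0.34, SE 0.07, adjusted p = 0.0225). The factors most specific to histone mRNA did not pass: SLBP, which binds the stem-loop, had a log2 fold change of 0.26 (adjusted p = 0.134) and NPAT, the S-phase coactivator of clustered genes, one of -0.08 (adjusted p = 0.798). SLBP and NPAT were chosen after their values were seen.

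Of 28 histone chaperones and deposition factors, none was called and the median log2 fold change was -0.00. An unadjusted p under 0.05 in limma was found for 4 of them (14.3%, beside 29.7% of all genes tested). Of 31 S phase genes, 2 were higher (6.45%, near the 7.01% of all genes) and none was lower (median 0.13). These were CCNE2, cyclin E2, at 2.20, 2.36 and 2.51 FPKM in oeNC and 3.64, 3.41 and 3.25 FPKM in oeSTUB1 (log2 fold change 0.53, limma adjusted p = 0.0165), and RFC3, a subunit of the clamp loader, at 5.46 to 5.76 FPKM in oeNC and 7.05 to 7.70 FPKM in oeSTUB1 (0.37, adjusted p = 0.0275). The S phase list summed to 1336 to 1414 FPKM in oeNC libraries and to 1435, 1657 and 1386 FPKM in oeSTUB1 libraries. The groups overlapped, and the highest sum was that of oeSTUB1 replicate 2. Of 20 mitosis genes, 1 was lower (5%, near the 6.59% of all genes) and none was higher (median -0.04). The lower gene was the checkpoint kinase BUB1, at 36.9 to 41.9 FPKM in oeNC and 28.4 to 33.5 FPKM in oeSTUB1 (log2 fold change -0.39, limma adjusted p = 0.0299). The part of the cell cycle lists in the histone values was not tested.

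Of 21 histone genes outside the rule, 9 were listed in the table and 5 tested. Of these 5, 1 was called higher (20%, beside 7.01% of all genes tested) and none lower. MACROH2A1, an H2A variant with a large macro domain, was higher, at 15.8, 15.1 and 15.1 FPKM in oeNC and 19.3, 20.1 and 19.2 FPKM in oeSTUB1. The log2 fold change was 0.34 (SE 0.07, limma adjusted p = 0.0189). MACROH2A2 and CENPA, the centromeric H3, had means of 24.7 and 24.9 FPKM in oeNC and 25.2 and 26.1 FPKM in oeSTUB1, and were chosen after their values were seen.

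The cells were checked against biliary epithelial markers, all 8 of which were tested. KRT19 was higher in oeSTUB1, from 0.374 to 0.529 FPKM in oeNC to 2.51 to 3.41 FPKM (log2 fold change 2.47, limma adjusted p = 0.000176), and 5 markers were lower, among them KRT8, KRT18, EPCAM and CDH1. Calls were thus 12.5% higher and 62.5% lower, beside 7.01% and 6.59% of all genes tested. KRT18 fell from 3840 to 4060 FPKM in oeNC to 2150 to 2900 FPKM (log2 fold change -0.68, limma adjusted p = 0.0244). EPCAM had a log2 fold change of -1.13 (adjusted p = 0.0104) and CDH1 one of -1.09 (adjusted p = 0.00545). The marker list summed to 7431 to 8008 FPKM in oeNC libraries and 4733 to 6272 FPKM in oeSTUB1 libraries. Of the defining biliary marker genes, KRT19 was thus near 0 in oeNC. Fibroblast markers summed to 1.30 to 2.37 FPKM in oeNC and 2.16 to 4.05 FPKM in oeSTUB1, with COL1A2, DCN and PDGFRB at or near 0. Most of that sum was COL1A1, at 1.07 to 1.95 FPKM in oeNC and 1.93 to 3.68 FPKM in oeSTUB1 (log2 fold change 0.75, SE 0.28, limma adjusted p = 0.120). Leukocyte and endothelial markers summed to 5.35 to 7.92 FPKM in oeNC and 6.84 to 7.53 FPKM in oeSTUB1, with CD3E, VWF and CDH5 at or near 0. Most of it was CD14, at 4.33 to 6.09 FPKM over the 6 libraries, followed by LYZ at 0.503 to 1.83 FPKM. COL1A1, CD14 and LYZ were chosen after their values were seen. In both lists no gene was called at an adjusted p under 0.05 in limma. The 2 fibroblast markers tested had an unadjusted p under 0.05, beside 29.7% of all genes tested. The part of the epithelial markers in the histone values was not tested.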

How the data were processed

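RNA-seq of 3 oeNC and 3 oeSTUB1 libraries of TFK1 cells was analysed. The authors deposited FPKM values for 23569 genes. The submitters' processing notes name fastp 0.20.1, HISAT2 2.1.0, HTSeq 0.11.2, R 3.2.0, DESeq2 1.22.2 and GRCh38.p13. The annotation and strand setting are not given in the sources used here. Groups and replicate numbers came from the sample titles. The study's methods say of its experiments in general that they were independent repeats. The labels do not say whether these libraries came from separate cultures, and if not, p-values measure a technical spread.

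Histone genes were chosen by symbol, and the genes and lists were chosen with earlier results of these data known. RefSeq symbols that match the rule and have no row numbered 13, and these genes were not analysed here. Whole fragments were recovered from the FPKM steps (library totals 33106564 to 36744521, recomputed FPKM within 4.9e-06), with lengths of 387 bases or more for clustered genes. No pair of libraries in a group was a copy of the other by their fragments (chi-square per degree of freedom 3.48 to 82.6). The precision of low genes is limited by their few fragments.

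The test was limma 3.58.1 in R 4.3.3 with an intensity trend on log2(FPKM + 0.1), 2-sided, on genes whose mean FPKM reached 0.1, with Benjamini-Hochberg adjustment over all 15353 genes tested and a threshold of 0.05. Fold changes are on that scale, which understates the change of low genes. Values by library were given for variant genes averaging 1 FPKM or more, for the highest clustered gene of each family and for called genes (up to 4 per family or list, by size of change). Results that need certain genes are not reported here; sums and counts include those genes. Alternatives were other pseudocounts, filters and scalings, a fit without trend, a replicate block, limma-voom on fragments and each library left out. A correction for gene length and the clustered sum without H2BC12 were added after seeing the data. Scripts used Python 3.11.15, and the fit and the recovery were tested on simulated data.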

Additional observations from a re-analysis of the deposited data

How the results depend on the processing

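The clustered sum kept its direction and its value within the replicate spread in all alternatives run (log2 ratio 0.23 to 0.38, without any single library 0.25 to 0.38). The log2 ratio of the variant sum, 0.10, was -0.02 after quantile normalization and -0.07 to 0.18 with single libraries left out, the negative value without oeSTUB1 replicate 2. H2BC12 was called in 15 of 16 alternatives (log2 fold change 0.42 to 0.57, adjusted p 0.00423 to 0.0600). H1-10 became called after quantile normalization (-0.39), gene length correction (-0.37) and without oeSTUB1 replicate 2 (-0.42). H3-5, with no call, ran from -0.31 to 0.17 with single libraries left out and changed sign without oeNC replicate 3 (0.17) and without oeSTUB1 replicate 3 (0.13). The other 10 genes given by library kept sign and call in all 16 alternatives.

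Histone genes higher numbered 1, and 2 with no filter (H4C11 was added) and 0 to 1 with single libraries left out, 0 being without oeNC replicate 1. Histone genes lower numbered 1, and 2 after quantile normalization, 2 after gene length correction, 0 with the replicate block, and 0 to 3 with single libraries left out, 0 in 5 of those 6 fits. The 3 were without oeSTUB1 replicate 2, when H4C1 was also called. Over all genes, 1076 higher and 1012 lower became 1675 and 1647 after gene length correction. With single libraries left out they became 477 to 2274 higher and 456 to 1838 lower, the most without oeSTUB1 replicate 2. The cause of these changes was not tested, beyond the fewer libraries in those fits.

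The values showed no pairing by replicate number: correlations of same-numbered deviations from the group means were -0.049, -0.052 and 0.062. Not every library was closest to its own number. With 3 libraries per group, these correlations cannot show whether the samples were handled in pairs. With the replicate block, 741 genes were higher and 747 lower, and no histone gene was called lower. Depth limits the clustered genes: 32 of 60 had at most 10 fragments in every library, and the calls of H4C11 and H4C1 above rest on at most 2 and 4 fragments in any library.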
